A study of Mus musculus with 6 samples.

Results

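The 9 genes described here encode the enzymes that build and break down liver glycogen and the subunits that bring protein phosphatase 1 (PP1) to it: *Gys2*, *Gyg*, *Gbe1*, *Ugp2*, *Pygl*, *Phka2*, *Ppp1r3b*, *Ppp1r3c* and *Ppp1r3g*. They were chosen by symbol, with earlier results of these data known, from the 56691 genes counted in the liver of pregnant mice. Of the 9, 8 were among the 10866 genes expressed highly enough to be tested. The comparison asks how glycogen genes of the maternal liver stood when hepatocytes lacked the carbohydrate response element binding protein (ChREBP, gene *Mlxipl*), a transcription factor that is active when sugar is plentiful. Females were mated on Day 0, ate a high fructose diet (HFrD, 70% fructose and 10 kcal% fat) until Day 17, and gave their livers on Day 17. The KPF group holds 3 hepatocyte-specific knockouts (h*Chrebp* KO, labelled hChrebp-KO). They were made by crossing *Chrebp* flox/flox mice with mice whose Cre is driven by the albumin promoter, which is active in hepatocytes. The WPF group holds 3 dams whose labels give WT and which the study's methods describe as *Chrebp* flox/flox. All 6 dams were pregnant and ate HFrD, no dam on another diet entered the comparison, and the age of the dams is not given in the sources used here.

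Glycogen is the store of glucose in liver. It is built from UDP-glucose on a protein primer by glycogen synthase and the branching enzyme, and it is opened by glycogen phosphorylase, which a kinase switches on. PP1, held on the particle by its glycogen-targeting subunits, removes phosphate from both enzymes, which favours synthesis and slows breakdown.

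Each value is one library from one liver, given as FPKM, the reads on a gene scaled for its exonic length and for the counted reads of the library, and libraries are named by group and replicate number (KPF1 to KPF3, WPF2 to WPF4). The libraries hold 10694496 to 14496630 counted reads, and every KPF library is smaller than every WPF library. *Mlxipl* reads, as CPM (counts scaled to the library size after TMM normalization), were 179, 700 and 849 in KPF1 to KPF3 and 961, 1260 and 879 in WPF2 to WPF4. The KPF libraries thus lay below the WPF libraries, at a log2 fold change of -0.84 (SE 0.53, edgeR adjusted p = 0.584), although reads of the whole gene were counted while the knockout removes exon 2 alone. *Pklr*, liver pyruvate kinase and a textbook ChREBP target, stood at 3.38, 5.63 and 3.31 FPKM in KPF and at 41.0, 45.9 and 8.93 FPKM in WPF (log2 fold change -2.90, SE 0.64, edgeR adjusted p = 0.415). KPF2 held skeletal muscle RNA, with 0.472% of its reads on 7 muscle markers. The 7 hepatocyte markers summed to 36544 to 44044 FPKM in KPF and 51621 to 71034 FPKM in WPF, a sum made mostly of albumin. Of these 7, none passed the looser line defined below, 4 had a positive and 3 a negative log2 fold change, and the median was 0.04. Of the 8 stellate cell and fibroblast markers, 4 were higher in KPF by that line (sum 22.0 to 49.3 FPKM against 16.3 to 22.8 FPKM), and of 4 adipose markers 1 was tested and was higher (sum 1.24 to 19.7 FPKM against 0 to 0.34 FPKM, *Lep* at 0 reads throughout). By the same line 1 of 6 endothelial markers was higher, and 0 of 7 macrophage, 0 of 5 erythroid, 0 of 1 tested bile duct and 0 of 2 tested lymphocyte and neutrophil markers passed. Of all tested genes 5.83% were higher by that line. The part of these cells in the glycogen values was not tested, and in bulk liver a lower share of hepatocytes and less RNA per hepatocyte cannot be told apart.

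By the edgeR quasi-likelihood test 0 of 10866 genes, 0.0%, had an adjusted p under 0.05, so that no glycogen gene did either. At an unadjusted p under 0.05 edgeR counted 1177 genes, and DESeq2 called 156 at an adjusted p under 0.05. A looser line, an unadjusted p under 0.05 with a change of at least 1.5-fold, was therefore used to describe the genes, and 9.82% of all tested genes passed it in either direction. It was passed by 2 of the 8 tested glycogen genes, the branching enzyme *Gbe1* and the phosphorylase *Pygl*. Both were lower in KPF, where 3.98% of all tested genes passed the line in that direction. None was higher, where 5.83% of all tested genes were. In all, 7 of the 8 tested glycogen genes had a negative log2 fold change (KPF against WPF), as did 48.6% of all tested genes. The median of the 8 was -0.82, beside 0.02 over all tested genes. The 8th, *Gyg*, was raised by a single library. The 9 genes lie on 9 different chromosomes. Summed over the 9 genes, the level was 85.9 to 124 FPKM in the KPF libraries and 175 to 212 FPKM in the WPF libraries. This sum is made mostly of *Gys2*, *Ugp2*, *Ppp1r3b* and *Pygl*, each of which overlapped between the groups. FPKM is scaled by library totals, which against TMM lowered the log2 fold change of all genes by 0.14 in the median.

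**Figure D1:**
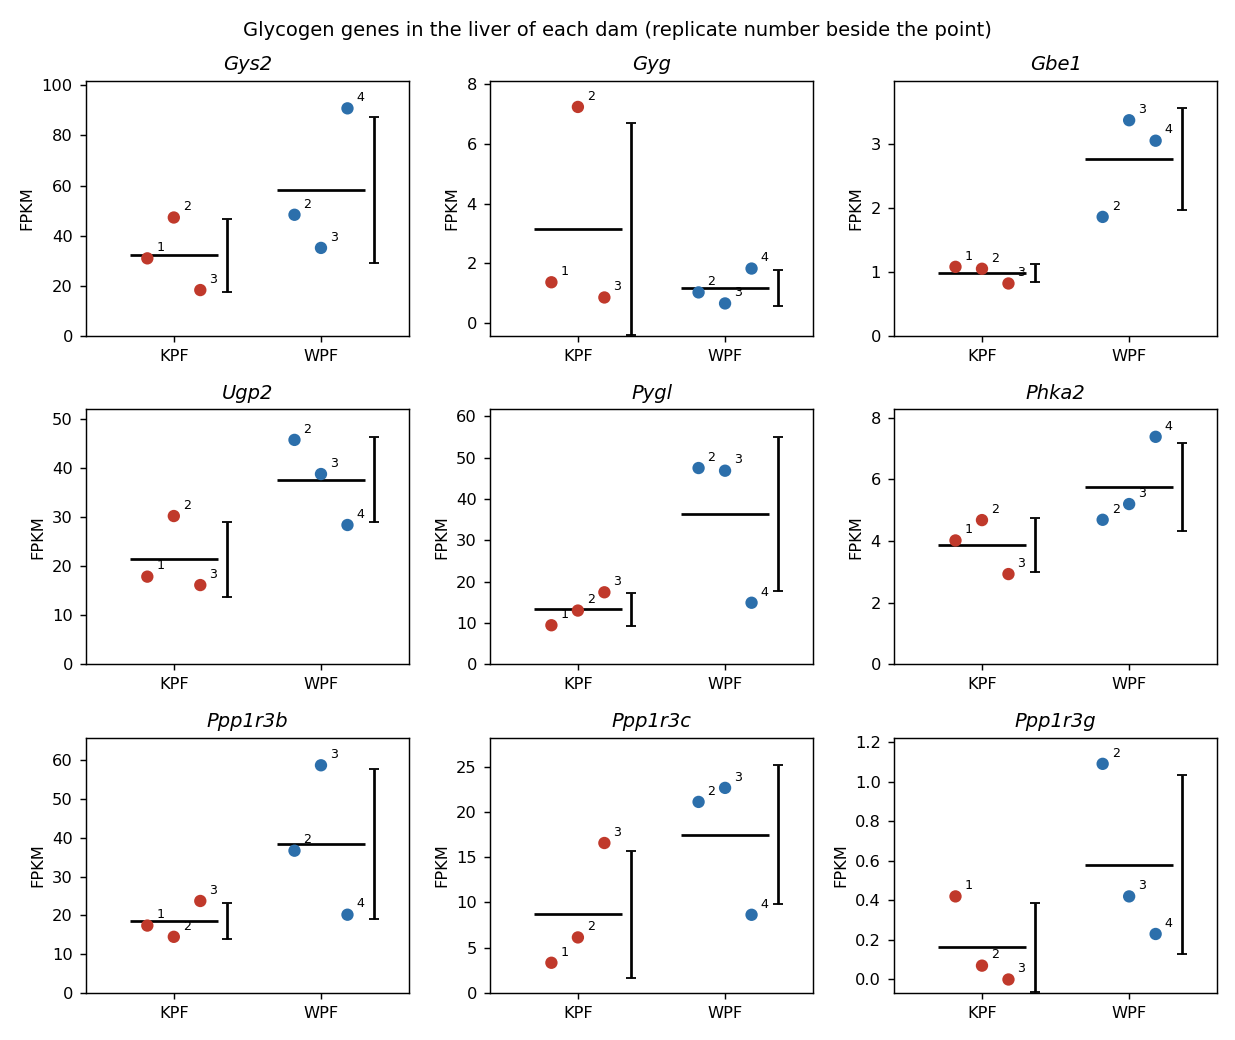
FPKM of each of the 9 glycogen genes in the 6 livers (points, with the replicate number; KPF on the left and WPF on the right of each panel), with the mean and SD of each group. The 3 KPF livers lie below the 3 WPF livers for *Gbe1* and, narrowly, for *Phka2*, and the groups overlap for the other genes.

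*Gbe1*, the glycogen branching enzyme, moves short chains onto a new branch point and so makes the particle compact and soluble. It is on chromosome 16 (GRCm39, 70110837 to 70366604, plus strand). Its level was 1.08, 1.05 and 0.82 FPKM in KPF1 to KPF3, and 1.86, 3.37 and 3.05 FPKM in WPF2 to WPF4. The KPF livers lay close together and all below the lowest WPF liver, a pattern that 8.15% of all tested genes share. The means were 0.983 ± 0.142 FPKM in KPF and 2.76 ± 0.796 FPKM in WPF (SD, n = 3 dams each). In the edgeR fit on scaled counts the gene was 2.53-fold lower in KPF, a log2 fold change of -1.34 with a 95% interval of -1.92 to -0.76. The unadjusted p of edgeR was 0.000769 and its adjusted p 0.415. An exact two-sided permutation test gave 0.1, which is the smallest value that 3 dams against 3 can give. The gene is read from few molecules, 51 to 64 reads in KPF and 129 to 237 reads in WPF. It was the only one of the 8 to keep an unadjusted p under 0.05 in every alternative that fitted it, 13 of 13, and the log2 fold change ran from -1.48 to -0.90. Its adjusted p was 0.00442 with DESeq2 and 0.0270 in edgeR without a filter on low values, and lay above 0.05 in the other alternatives, up to 0.823.

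Among the 7 of 9 genes with a RefSeq promoter window (GRCm38.p6, 250 bases before to 50 after a start site, 8 windows), *Gbe1* alone held CANGNG and CNCNTG in this order with NNNNN between them, searched on both strands. These letters are a loose form of the element that ChREBP binds, which consists of a pair of E-box-like sequences around a short spacer, and the *Gbe1* match holds no complete E-box (CANNTG). *Pklr*, whose levels are given above, holds the best known such element, and both are shown with the matched letters in capitals and 5 flanking bases on each side. The *Gbe1* match lies 7 to 23 bases after the start (chr16:70313951-70313977, plus strand) and the *Pklr* match 170 to 154 bases before its start (chr3:89136448-89136474, plus strand).
Gbe1: ggctcCAGGGGCCGGCCCCGTGagtgg
Pklr: gacgcCACGGGGCACTCCCGTGgttcc
The loose form is present in 0.557% of all 32851 promoter windows. The stricter published consensus of the carbohydrate response element, in 0.119% of windows, was matched by *Pklr* and by 0 of the 8 windows of the glycogen genes. A match of letters is a description and shows no binding.

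*Gys2*, the liver glycogen synthase, adds glucose to the growing chain and was the most abundant of the 9 genes in both groups by mean FPKM. The gene lies on chromosome 6 (GRCm39, 142368339 to 142418835, minus strand). Its level was 31.0, 47.3 and 18.3 FPKM in KPF1 to KPF3, and 48.4, 35.1 and 90.8 FPKM in WPF2 to WPF4. The groups overlapped, since KPF2 stood above WPF3, and WPF4 alone was far above the rest. The means were 32.2 ± 14.5 FPKM and 58.1 ± 29.1 FPKM (SD, n = 3 dams each), and the edgeR fit on scaled counts put *Gys2* 1.65-fold lower in KPF. KPF against WPF, the log2 fold change was -0.72 (95% interval -1.69 to 0.25, edgeR unadjusted p = 0.124, adjusted p = 0.559), within the spread between dams. It was -1.08 without KPF2, the library with muscle RNA (edgeR unadjusted p = 0.0344), and -0.39 without WPF4.

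*Ugp2*, UDP-glucose pyrophosphorylase, makes the activated glucose that the synthase uses. The gene lies on chromosome 11 (GRCm39, 21271138 to 21321201, minus strand). Its level was 17.9, 30.3 and 16.2 FPKM in KPF1 to KPF3, and 45.8, 38.9 and 28.5 FPKM in WPF2 to WPF4. KPF1 and KPF3 lay below every WPF liver and KPF2 lay just above WPF4. The log2 fold change was -0.74 (95% interval -1.56 to 0.08, edgeR unadjusted p = 0.0719, adjusted p = 0.491), 1.67-fold lower in KPF, and leaving out single libraries moved it between -1.04 and -0.43.

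*Gyg*, glycogenin, is the protein primer on which a glycogen particle starts, and it was the only one of the 8 tested genes with a positive log2 fold change. It is on chromosome 3 (GRCm39, 20176248 to 20209481, minus strand). Its level was 1.36, 7.24 and 0.85 FPKM in KPF1 to KPF3, and 1.02, 0.65 and 1.82 FPKM in WPF2 to WPF4, from 193 reads in KPF2 and 20 to 62 reads in the other 5 libraries. KPF2 alone stood high, and KPF1 and KPF3 fell within the range of WPF. With all libraries the log2 fold change was 1.54 (SE 0.79, edgeR unadjusted p = 0.0878, adjusted p = 0.514), and it was 0.08 without KPF2 (edgeR adjusted p = 0.966).

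The high *Gyg* library is the one with muscle RNA, and the glycogen isoforms used by muscle were high in the same library. The 7 skeletal muscle markers summed to 2866 FPKM in KPF2 and to 4.67 to 8.17 FPKM in the other 5 libraries. *Pygm*, muscle phosphorylase, stood at 24.6 FPKM in KPF2 and at 0.39 to 1.05 FPKM elsewhere. The muscle synthase *Gys1* stood at 4.54 FPKM in KPF2 and at 0.79 to 1.27 FPKM elsewhere, and the muscle targeting subunit *Ppp1r3a* had 65 reads in KPF2 and 0 to 2 reads elsewhere (*Gys1* and *Ppp1r3a* were singled out after their values were seen). All of these transcripts were thus highest in the same liver. The 7 markers were all higher in KPF by the looser line, and without KPF2 none was higher by it and 3 were lower. *Pygm* passed it too (log2 fold change 3.95, SE 1.38, edgeR adjusted p = 0.430) and did not without KPF2. Without KPF2 the median log2 fold change of the 8 glycogen genes was -0.91, against -0.82 with it, and the genes past the looser line were *Gbe1*, *Gys2* and *Ugp2*, all lower in KPF.

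**Figure D2:**
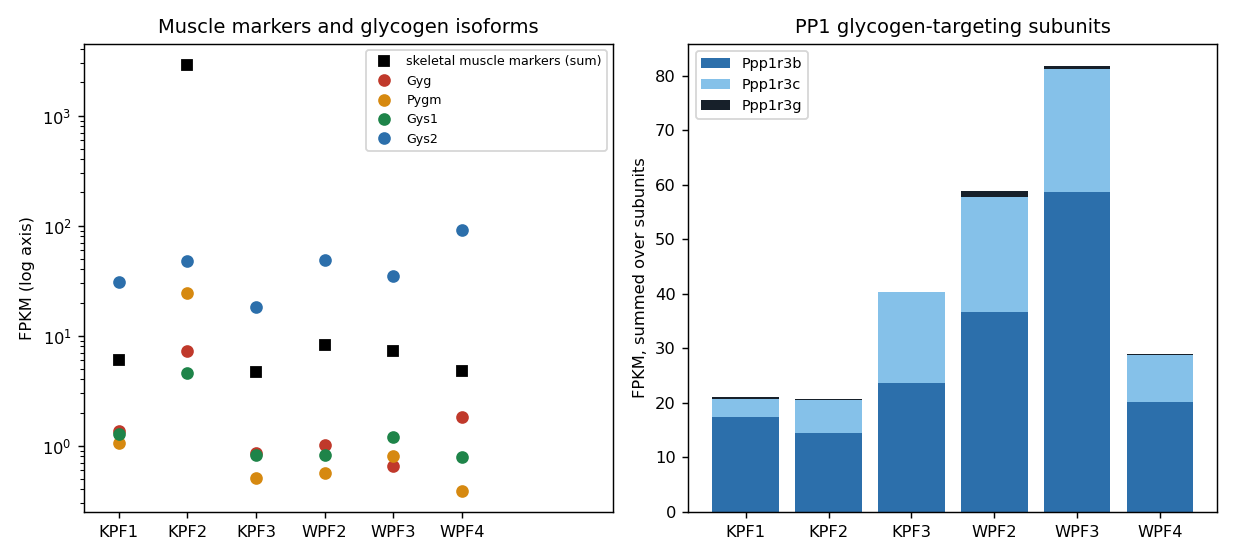
Left, FPKM on a log axis of the summed skeletal muscle markers, *Gyg*, *Pygm*, *Gys1* and *Gys2* in each library; right, FPKM of *Ppp1r3b*, *Ppp1r3c* and *Ppp1r3g* stacked in each library. KPF2 stands above the other 5 libraries for the muscle markers (2866 FPKM), *Gyg*, *Pygm* and *Gys1*, and in the right panel *Ppp1r3b* is the tallest part of each bar.

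*Pygl*, liver glycogen phosphorylase, releases glucose 1-phosphate from the ends of the chains and showed the lowest log2 fold change of the 8 tested genes. Its place is chromosome 12 (GRCm39, 70237585 to 70278262, minus strand). Its level was 9.48, 13.0 and 17.5 FPKM in KPF1 to KPF3, and 47.5, 46.9 and 14.9 FPKM in WPF2 to WPF4. WPF2 and WPF3 stood far above every KPF liver, while WPF4 lay below KPF3, so the groups overlapped. The means were 13.3 ± 3.99 FPKM and 36.4 ± 18.6 FPKM (SD, n = 3 dams each), and the edgeR fit on scaled counts put *Pygl* 2.59-fold lower in KPF. The log2 fold change was -1.37 (95% interval -2.61 to -0.14, edgeR unadjusted p = 0.0334, adjusted p = 0.438), and an exact two-sided permutation test gave 0.3. Single libraries decided whether it passed the looser line. Without WPF4 the log2 fold change was -1.79 (edgeR unadjusted p = 0.00166). The unadjusted p of edgeR was 0.0997 without KPF1, 0.0671 without KPF2, 0.124 without WPF2 and 0.0870 without WPF3, all with *Pygl* lower in KPF. An overlapping antisense gene, whose reads cannot be told apart where strand is not kept, had 0 to 10 reads per library.

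*Phka2* encodes the liver form of the regulatory alpha subunit of phosphorylase kinase, the enzyme that activates phosphorylase. Its place is chromosome X (GRCm39, 159285162 to 159381874, plus strand). Its level was 4.02, 4.68 and 2.93 FPKM in KPF1 to KPF3, and 4.69, 5.20 and 7.38 FPKM in WPF2 to WPF4. Every KPF liver lay below every WPF liver, though KPF2 and WPF2 stood almost level. The difference was the smallest among the 7 negative ones, a log2 fold change of -0.44 (95% interval -0.94 to 0.06, edgeR unadjusted p = 0.0789, adjusted p = 0.505). *Phka2* and *Gbe1* were the 2 of 8 tested genes with no overlap between groups and KPF lower, beside 8.15% of all tested genes, and none was without overlap and higher in KPF, beside 7.55% of all tested genes.

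The synthase and the phosphorylase did not keep a fixed ratio among these livers. *Gys2* FPKM divided by *Pygl* FPKM was 3.27, 3.63 and 1.05 in KPF1 to KPF3, and 1.02, 0.750 and 6.09 in WPF2 to WPF4. The log2 ratio was 1.21 ± 0.992 in KPF and 0.739 ± 1.63 in WPF (SD, n = 3 dams each). The difference of 0.47 lay within the spread between dams (exact two-sided permutation p = 0.8). WPF4 combined the highest *Gys2* with the lowest *Pygl* of its group, and its value was above those of all other libraries. None of 7 clock genes passed the looser line, but their levels set the same library apart from the rest of its group in both directions (genes singled out after their values were seen). *Dbp* stood at 112 FPKM and *Nr1d1* at 57.2 FPKM in WPF4, against 0.56 to 0.59 FPKM and 1.73 to 3.65 FPKM in WPF2 and WPF3. *Arntl* stood at 0.23 FPKM and *Npas2* at 0.1 FPKM in WPF4, against 2.48 to 4.45 FPKM and 1.94 to 5.14 FPKM in the other 2, while *Per2* in WPF4 (12.9 FPKM) lay between theirs. KPF1 and KPF2 had the order of WPF4, with *Dbp* at 12.6 and 68.3 FPKM and *Arntl* at 0.31 and 0.14 FPKM, and KPF3 had 1.76 and 3.14 FPKM. *Pklr* in WPF4, at 8.93 FPKM, was the lowest of WPF. The part of the hour of collection in these values was not tested.

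**Figure D3:**
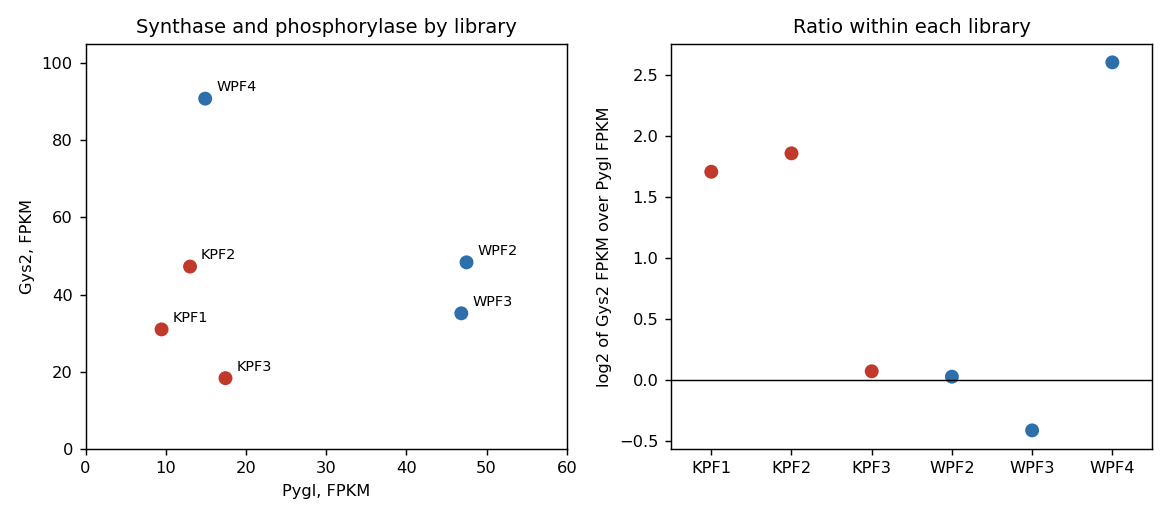
Left, *Gys2* FPKM against *Pygl* FPKM with one point per library; right, the log2 of their ratio in each library. KPF1, KPF2 and WPF4 have a ratio well above 1 (log2 of 1.71, 1.86 and 2.61), while KPF3, WPF2 and WPF3 lie near equal levels.

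*Ppp1r3b* encodes the main liver glycogen-targeting subunit of PP1. It is on chromosome 8 (GRCm39, 35842893 to 35855293, plus strand). Its level was 17.4, 14.5 and 23.7 FPKM in KPF1 to KPF3, and 36.7, 58.7 and 20.2 FPKM in WPF2 to WPF4. As for *Pygl*, WPF2 and WPF3 stood above every KPF liver and WPF4 did not. This gave a log2 fold change of -0.94 (95% interval -1.97 to 0.09, edgeR unadjusted p = 0.0693, adjusted p = 0.488), 1.92-fold lower in KPF. It was between -1.30 and -0.58 when single libraries were left out.

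*Ppp1r3c*, also called protein targeting to glycogen, binds PP1 together with its substrates. It is on chromosome 19 (GRCm39, 36709131 to 36714053, minus strand). Its level was 3.33, 6.13 and 16.6 FPKM in KPF1 to KPF3, and 21.1, 22.6 and 8.63 FPKM in WPF2 to WPF4. KPF3 stood within the WPF range and WPF4 below KPF3, so the groups overlapped widely. This gave a log2 fold change of -0.89 (95% interval -2.42 to 0.64, edgeR unadjusted p = 0.214, adjusted p = 0.639), the widest interval among the 7 negative genes. Single libraries moved it both ways, to -1.85 without KPF3 (edgeR unadjusted p = 0.0145, past the looser line) and to -0.49 without KPF1 or -0.60 without WPF2. Its promoter holds the E-box CACGTG, 104 to 99 bases before the start, and the 250 bases before the start are shown with that match in capitals (chr19:36736605-36736854, minus strand, GRCm38.p6).
Ppp1r3c: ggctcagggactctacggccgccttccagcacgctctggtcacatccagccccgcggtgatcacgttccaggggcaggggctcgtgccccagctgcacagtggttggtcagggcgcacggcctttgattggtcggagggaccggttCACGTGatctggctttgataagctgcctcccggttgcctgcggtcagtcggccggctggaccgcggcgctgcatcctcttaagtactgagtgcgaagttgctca
CACGTG, searched on both strands, is present in 7.15% of all promoter windows, and among the glycogen genes also in that of *Gyg*, 8 to 13 bases after the start. The cyclic AMP response element TGACGTCA (1.79% of windows) and the FOXO letters GTAAACA (3.65% of windows) were found in 0 of the 8 windows. The part TGACG of the former (20.8% of windows) was found for *Gyg*, *Ppp1r3g* and *Pygl*, where in *Gyg* it overlaps the E-box.

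*Ppp1r3g*, a further targeting subunit, lies on chromosome 13 (GRCm39, 36142822 to 36154371, plus strand) and was near the limit of detection. It had 12, 2 and 0 reads in KPF1 to KPF3, and 38, 15 and 9 reads in WPF2 to WPF4. The 0 in KPF3 allows up to 3 reads, 0.0963 FPKM, where this limit covers counting error only. KPF1 lay above WPF4, so the groups overlapped. Its mean fell under the minimum for testing, and in the fit without that minimum the log2 fold change was -1.92 (SE 0.91, edgeR unadjusted p = 0.0454, adjusted p = 0.523).

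The shares of the targeting subunits overlapped between the groups. *Ppp1r3b* gave 82.2%, 69.99% and 58.9% of the FPKM summed over the 3 subunits in KPF1 to KPF3, and 62.3%, 71.8% and 69.5% in WPF2 to WPF4. The mean shares were 70.4% ± 11.7 in KPF and 67.8% ± 4.95 in WPF (SD, n = 3 dams each). The difference of 2.52 percentage points was smaller than the spread between dams (exact two-sided permutation p = 0.9), a test that does not show the shares to be equal.

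Ordered by mean FPKM, the KPF livers gave *Gys2*, *Ugp2*, *Ppp1r3b*, *Pygl*, *Ppp1r3c*, *Phka2*, *Gyg*, *Gbe1* and *Ppp1r3g*. The ranges of neighbours in this order over the 3 libraries overlapped, except that the lowest value of *Gbe1* was above the highest of *Ppp1r3g*. Within single libraries, *Gys2* was above *Ugp2*, *Ppp1r3b* above *Pygl*, *Pygl* above *Ppp1r3c*, and *Gyg* above *Gbe1* in all 3. The order in WPF was *Gys2*, *Ppp1r3b*, *Ugp2*, *Pygl*, *Ppp1r3c*, *Phka2*, *Gbe1*, *Gyg* and *Ppp1r3g*. There the lowest values of *Ppp1r3c*, *Phka2* and *Gbe1* each lay above the highest of the next gene, and the ranges of the other neighbours overlapped, although *Pygl* was above *Ppp1r3c* within each of the 3 libraries. Of the 8 tested genes, KPF3 held the lowest scaled level of 4 and WPF2 the highest of 3, whereas the only gene highest in a KPF library was *Gyg*.

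Isoform shares could be set side by side because FPKM is per length. *Gys2* made up 96.1%, 91.2% and 95.7% of the summed synthase FPKM (*Gys1* and *Gys2*) in KPF1 to KPF3, and 98.3%, 96.7% and 99.1% in WPF2 to WPF4. The liver form was the main one in every liver. The KPF shares were lower without overlap, though KPF1 lay narrowly below WPF3 (exact two-sided permutation p = 0.1, the smallest possible). The lowest of these shares was that of KPF2, where the muscle synthase *Gys1* was high. *Phka2* made up 68.6%, 59.2% and 62.3% of the FPKM of both alpha subunits in KPF and 75.0%, 70.5% and 71.7% in WPF, again without overlap (p = 0.1 by the same exact test). KPF2 again had the lowest share, and the highest level of the other alpha subunit *Phka1*, 3.23 FPKM against 1.56 to 2.92 FPKM elsewhere. For both genes the shares of KPF1 and KPF3 also lay below every WPF share. The part of the muscle RNA in these shares was not tested. For comparison, the levels of 15.7% of all tested genes did not overlap between the groups, in either direction. *Pygl* made up 86.0%, 34.2% and 93.8% of phosphorylase FPKM in KPF and 97.7%, 96.6% and 92.5% in WPF, with overlap, and the value of 34.2% is that of KPF2 with its muscle RNA.

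The wider pathway, 32 further genes of glycogen and glucose 6-phosphate handling, lay nearer to 0 as a list. Of its 25 tested genes, 2 were lower and 1 was higher by the looser line, beside 3.98% and 5.83% of all tested genes, and their median log2 fold change was -0.07. The 2 lower genes belong to the supply and removal of glucose 6-phosphate. The 5 tested genes of that role group had a median log2 fold change of -0.87, beside -0.82 for the glycogen genes. *Slc2a2*, the glucose transporter of hepatocytes, stood at 3.85, 10.2 and 3.98 FPKM in KPF1 to KPF3 and at 18.3, 23.7 and 16.7 FPKM in WPF2 to WPF4. *Gckr*, a regulatory protein of hepatic glucose phosphorylation, stood at 76.3, 71.7 and 92.9 FPKM in KPF and at 155, 196 and 126 FPKM in WPF. They were the 2 of the 25 tested genes with no overlap between groups and KPF lower, a share close to the 8.15% of all tested genes. For *Slc2a2* the log2 fold change was -1.61 (SE 0.41, edgeR unadjusted p = 0.00487, adjusted p = 0.430). For *Gckr* it was -0.87 (SE 0.31, edgeR unadjusted p = 0.0229, adjusted p = 0.430), and its unadjusted p rose above 0.05 or its change fell under 1.5-fold without KPF1, KPF2, WPF2 or WPF3. The higher gene was *Pygm*, described above with the muscle RNA.

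*G6pc*, glucose 6-phosphatase of the same role group, was singled out after its values were seen for its spread, at 2.17, 5.39 and 20.6 FPKM in KPF and 41.3, 147 and 2.2 FPKM in WPF. WPF4 was again on the KPF side, and the log2 fold change of -2.59 had an SE of 1.34 (edgeR unadjusted p = 0.0906).

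Among the isoforms of muscle or brain the most abundant gene was *Pygm*, which passed the looser line as described above. The most abundant genes of the other role groups did not pass it. Their log2 fold change was -0.13 for *Gaa*, the lysosomal glucosidase, and -0.50 for *Pgm1*, which interconverts glucose 1-phosphate and glucose 6-phosphate. It was 0.33 for *Phkg2*, the liver catalytic subunit of phosphorylase kinase, and -0.12 for the PP1 catalytic subunit *Ppp1ca*. It was -0.27 for *Stbd1*, which tethers glycogen to membranes, 0.23 for the synthase kinase *Gsk3a*, and -0.05 for the glucagon receptor *Gcgr*. Their edgeR unadjusted p values lay between 0.115 for *Pgm1* and 0.857 for *Gcgr*.

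**Figure D4:**
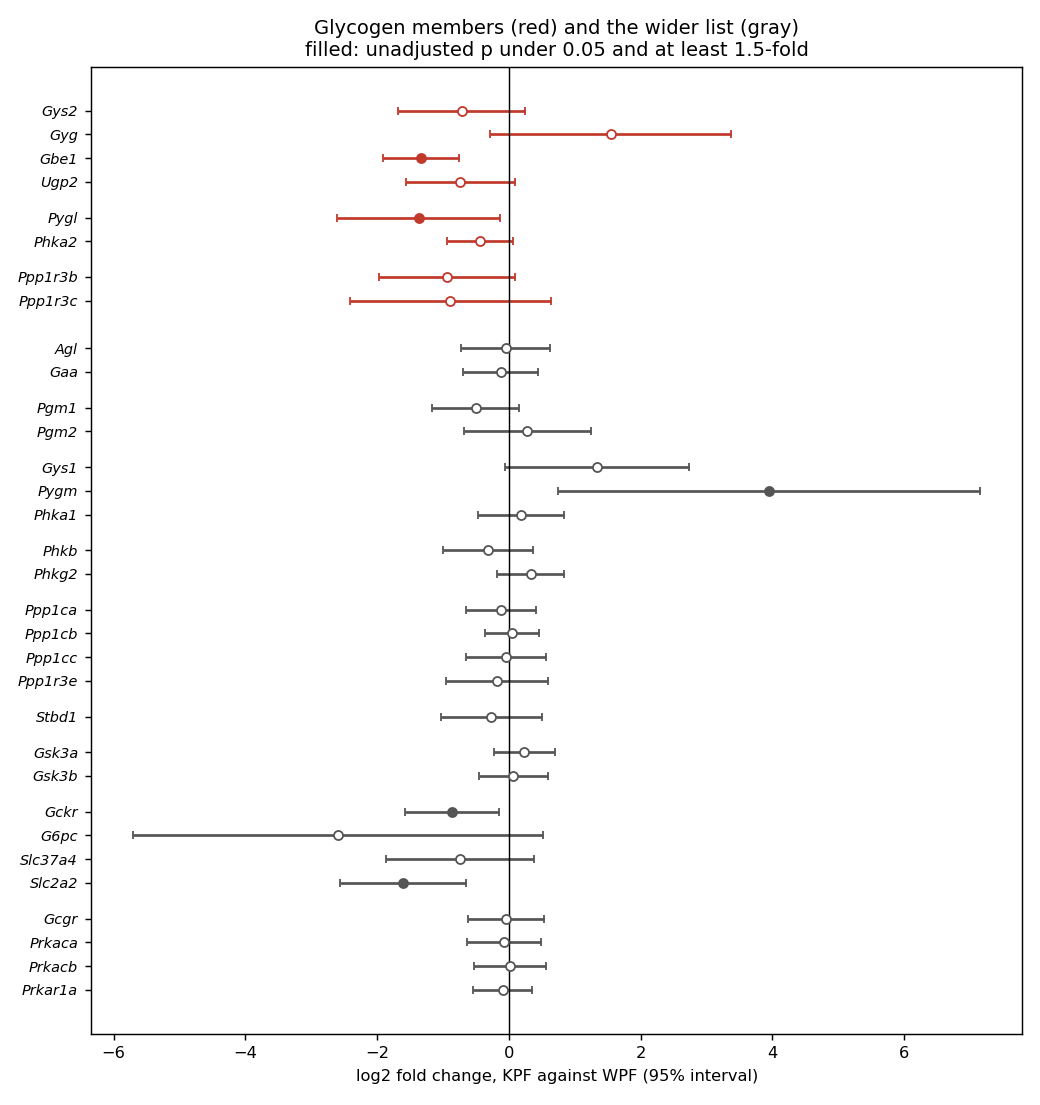
The log2 fold change of KPF against WPF with its 95% interval for the tested glycogen genes (red) and the genes shown of the wider list (gray), grouped by role; filled points passed the looser line. Of the red points, 7 lie left of 0 and *Gbe1* and *Pygl* are filled; of the gray points, *Slc2a2*, *Gckr* and *Pygm* are filled.

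Feeding state bears on glycogen genes, so genes of the fasted liver were set beside them. Of 8 tested, 1 was higher and 1 lower by the looser line, beside 5.83% and 3.98% of all tested genes. *Pck1*, of gluconeogenesis, stood at 76.3, 499 and 84.5 FPKM in KPF and at 51.4, 40.9 and 108 FPKM in WPF (log2 fold change 1.85, edgeR unadjusted p = 0.0409), and did not pass the line without KPF2. *Igfbp1*, which insulin represses, stood at 8.71, 5.48 and 10.1 FPKM in KPF and at 47.2, 86.9 and 9.73 FPKM in WPF (log2 fold change -2.46, edgeR unadjusted p = 0.0103). WPF4 lay below KPF3 for this gene, so the groups overlapped. The list therefore had no common direction, and the part of feeding state in the glycogen values was not tested.

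The genes whose pattern over the 6 libraries was most like that of *Gbe1*, by the root mean square difference of centred log2 CPM, were *Bhlhe40* (0.174), *Stk38l* (0.207) and *Rassf6* (0.213). The spread of *Gbe1* itself on that scale was 0.617, and the median difference to all tested genes was 0.691. For *Gys2* they were *Depp1* (0.238), *Cln6* (0.238) and ENSMUSG00000121256 (0.239), beside a spread of 0.615 and a median of 0.695. No other glycogen gene was among the 3 most alike. Among them the closest to *Gys2* was *Phka2*, at rank 55 with 0.356, and the closest to *Gbe1* was also *Phka2*, at rank 495 with 0.447. These ranks are over the 10866 tested genes, and both differences were under the medians.

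**Figure D5:**
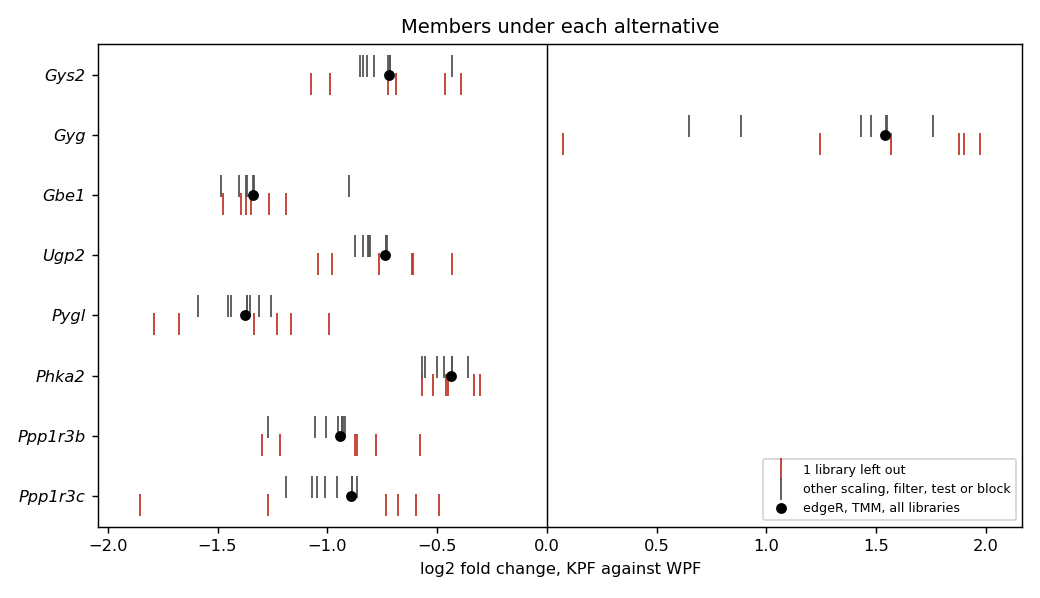
The log2 fold change of each of the 8 tested glycogen genes under the main test and each alternative, one point per alternative. The points of a gene all lie on the same side of 0, with *Gbe1* between -1.48 and -0.90 and *Gyg* reaching down to 0.08 without KPF2.

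Across these alternatives 7 of the 8 tested genes were lower in KPF in every one, although which of them passed the looser line changed. Scaling by library totals in place of TMM lowered the log2 fold change of all genes by 0.14 in the median, with the glycogen median at -0.93 beside -0.12 over all genes.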

How the data were processed

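Liver poly(A) RNA of 3 KPF and 3 WPF dams was sequenced as paired-end reads. For every gene the authors deposited unscaled read counts and the FPKM computed from them. The submitters' processing notes name cutadapt 1.9.1, HISAT2 2.2.1, HTSeq 0.6.1, DESeq2 and GRCm39, while the strand setting and the annotation release are not given in the sources used here. FPKM equalled count per exonic length and column total in all values within rounding. Symbols came from GENCODE M21 (52073 gene IDs matched, 4618 did not). Promoter windows are those of RefSeq GRCm38.p6 and were not combined with GRCm39 coordinates.

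Where the mean FPKM over the libraries reached 1, counts were tested with edgeR 4.0.16 (R 4.3.3, TMM, quasi-likelihood test, Benjamini-Hochberg adjustment). Group means and SDs are of FPKM. Folds and log2 fold changes of the main test come from counts scaled by TMM, so they differ from ratios of the FPKM means. Single values were also tested by an exact two-sided permutation test. The fits were also tested on simulated counts. The labels name separate samples per group, and p values measure the spread between these. The glycogen genes, the wider list and the marker lists were chosen with earlier results of these data known. The genes named were the 9 glycogen genes, *Mlxipl* and *Pklr*, genes of the wider list with an unadjusted p under 0.05, the most abundant gene of each role group, genes of the fasting list past the looser line, and the 3 genes most like *Gbe1* and *Gys2*, with exceptions stated. The values of 1 gene of the wider list, which is included in its counts, are not reported here. The 16 letter patterns searched were chosen from general knowledge. Alternatives were DESeq2 1.42.0 and its size factors, library totals, limma 3.58.1 on log2(FPKM + 1) and log2(FPKM + 0.1), another or no minimum FPKM, each library left out, and the replicate number as a block. Replicate numbers 2 and 3 occur in both groups but stand for different dams, and were not used for pairing in the main test. In the replicate block KPF1 and WPF4 have no partner. Its group difference therefore rests on KPF2, KPF3, WPF2 and WPF3 alone.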

Additional observations from a re-analysis of the deposited data

How the results depend on the processing

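The 8 tested glycogen genes kept the direction of their log2 fold change under every alternative that fitted them (7 lower and 1 higher in KPF), and *Mlxipl* stayed lower, from -1.23 to -0.42 when single libraries were left out. The number of genes at an adjusted p under 0.05, 0 with edgeR, was 156 with DESeq2, 286 without a filter on low values, and 0 to 5 with single libraries left out. Past the looser line, 634 genes were higher and 433 lower. The higher count was 371 with library totals, 288 with limma at a pseudocount of 0.1, 237 with limma at a pseudocount of 1, 255 at a mean FPKM of at least 5, 1576 without a filter and 324 to 910 with single libraries left out. The lower count was 729, 700 and 205 with library totals, limma at 0.1 and FPKM of at least 5, 910 without a filter and 246 to 709 with single libraries left out. Glycogen genes past it and lower (2) numbered 4 with DESeq2, library totals or limma at 0.1, 3 with limma at a pseudocount of 1, 1 at FPKM of at least 5, which removes *Gbe1*, 7 without a filter and 1 to 4 with single libraries left out. Glycogen genes higher (0) numbered 1, *Gyg*, with DESeq2, without a filter and without KPF3, and otherwise 0 to 1. For the wider list, higher genes (1) numbered 0 with limma or FPKM of at least 5, 4 without a filter and 0 to 2 with single libraries left out, and lower genes (2) numbered 4 without a filter and 1 to 3 with single libraries left out. The *Gys2* to *Pygl* log2 ratio difference turned to -0.10 without WPF3 (range -0.10 to 1.41), and that of the *Ppp1r3b* share to -3.42 without KPF1 and -0.26 without WPF2 (range -3.42 to 8.27 percentage points). Where no cause is named, the cause was not tested.

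Deviations of libraries with the same replicate number had correlations of 0.035 and 0, which shows no pairing by number. With 2 pairs and 3 libraries a group these values cannot exclude a factor shared by a number. With the replicate block the glycogen genes past the looser line were 4 lower and 1 higher, those of the wider list 4 lower and 0 higher, the *Ppp1r3b* share difference was -2.61, and *Gys2* and *Gbe1* stood at -0.43 and -1.37. The depth limits *Ppp1r3g*, *Gbe1* and *Gyg* most, with 0 to 38, 51 to 237 and 20 to 193 reads.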
